A study of Mus musculus with 12 samples.

Results

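The 76 genes described here encode proteins of the mitochondrial ribosome and were chosen by symbol alone, as every row of the 23420-gene table named Mrpl or Mrps followed by a number and at most 1 letter from a to c. By symbol, 47 belong to the large subunit and 29 to the small subunit. The 12 RNA libraries come from mouse fetal liver, with 3 in each of 4 groups: PIR+ wild type (wt), PIR- wt, PIR+ KO and PIR- KO. PIR is the paired immunoglobulin-like receptor, a pair of activating and inhibitory cell surface receptors of blood cells. Per the labels, all groups were sorted as lineage-negative cells with c-Kit on their surface, 100 cells to a tube (the markers field gives IL7Ra+ for all 12, whereas the series title calls PIR- cells IL7R-), and the same amount of ERCC spike-in RNA went into each tube. The labels name neither the KO gene nor the strain or allele, so the knockout was not checked. Nor do they tie libraries to embryos, so p-values measure only the spread among these samples, which may be technical. Groups were taken from the sample titles. In 6 of 12 libraries the PIR sign in the markers field goes against the title, and the stage in the source name (E12.5 or E14.5, days of embryonic development) follows the markers field, while the series title gives E12.5.

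The mitochondrial ribosome translates the few respiratory chain subunits that are encoded in mitochondrial DNA. Its RNAs come from mitochondrial DNA, whereas all its proteins are encoded in the nucleus, made in the cytosol and imported. Symbols do not always give the place of a protein: Mrps30 and Mrps18a were named for the small subunit and sit in the large subunit of the mammalian mitochondrial ribosome, and Mrps36 is now assigned to the 2-oxoglutarate dehydrogenase complex. Counts by subunit below follow the symbols.

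The starts of 4 genes on which the results turn are printed first, because nuclear genes for mitochondrial proteins are known for promoter motifs of ETS factors, NRF1 and YY1. Each sequence runs from 250 bases before the RefSeq start to 20 bases after it (GRCm38.p6, 5′ to 3′ on the gene's strand), and capitals mark the letters CCGGAAG of the ETS core. Mrpl33 and Mrps30 were the members highest in PIR+ cells relative to PIR- cells, Mrpl23 was among those toward the other end of the range, though not the lowest, and Mrpl43 had the highest value of all members.
Mrpl33, chr5:31613701-31613970, plus strand: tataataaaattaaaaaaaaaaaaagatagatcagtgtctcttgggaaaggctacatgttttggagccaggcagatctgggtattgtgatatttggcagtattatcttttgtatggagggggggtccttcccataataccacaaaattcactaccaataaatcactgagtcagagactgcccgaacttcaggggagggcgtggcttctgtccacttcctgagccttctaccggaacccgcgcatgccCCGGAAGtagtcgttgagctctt
Mrps30, chr13:118387233-118387502, minus strand: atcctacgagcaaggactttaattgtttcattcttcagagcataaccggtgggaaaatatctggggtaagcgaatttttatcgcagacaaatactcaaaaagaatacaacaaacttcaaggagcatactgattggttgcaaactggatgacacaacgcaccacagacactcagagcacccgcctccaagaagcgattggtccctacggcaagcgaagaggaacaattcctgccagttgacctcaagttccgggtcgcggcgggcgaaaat
Mrpl23, chr7:142532782-142533051, plus strand: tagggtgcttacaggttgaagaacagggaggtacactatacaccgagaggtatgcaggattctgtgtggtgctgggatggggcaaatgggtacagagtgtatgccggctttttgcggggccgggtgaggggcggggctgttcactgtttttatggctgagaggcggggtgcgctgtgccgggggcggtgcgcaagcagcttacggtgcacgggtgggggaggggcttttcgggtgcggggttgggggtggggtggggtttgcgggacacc
Mrpl43, chr19:45006423-45006692, minus strand: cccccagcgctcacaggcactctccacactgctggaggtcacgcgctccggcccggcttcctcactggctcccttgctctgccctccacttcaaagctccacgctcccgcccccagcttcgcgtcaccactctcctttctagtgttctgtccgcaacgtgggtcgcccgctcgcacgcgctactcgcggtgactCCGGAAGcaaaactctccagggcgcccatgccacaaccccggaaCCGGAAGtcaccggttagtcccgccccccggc
Mrpl43 held the ETS core at 2 places, beginning 56 and 12 bases before the start. Mrpl33 held it once, beginning 3 bases before the start and running across it. Neither Mrps30 nor Mrpl23 held it in the stretch shown.

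RefSeq gave a promoter for 67 of the 76 members. Over the whole window of 300 bases, 250 before and 50 after the start, and on both strands, CCGGAAG was found in 23 of them (34.3%), against 23.0% of 3470 promoters of tested genes and 9.12% of all 27018 promoters. The YY1 letters AAGATGGC were found in 12 member promoters (17.9%), against 6.22% and 2.88%. The NRF1 letters CGCATGCG were found in 7 (10.4%), against 5.07% and 1.91%, and with a G before and a C after them in 3 (4.48%), against 2.48% and 0.977%. At least 1 of the 3 motifs was present in 35 members (52.2%), against 31.1% and 13.1%, and a promoter could hold more than 1. Median GC content was 58.0% in member promoters, 61.3% in those of tested genes and 52.7% in all. These are matches of letters, given as a description.

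All 76 members were above 0 in all 12 libraries. Values are normalized molecule values as deposited, not divided by transcript length, so their order over genes is no order of abundance per length. Means over the 12 libraries ran from 5.86 for Mrps31 to 102.6 for Mrpl43, with a median of 15.8, and 30 members had a mean of at least 20. Mrpl43 was followed by Mrpl34 (46.1), Mrpl18 (43.3), Mrpl33 (42.2), Mrpl30 (40.4), Mrps21 (37.2), Mrps14 (36.1) and Mrpl42 (34.8). Genes that reached 10 in 3 or more libraries were tested, which kept 71 members (45 large, 26 small) among 4542 genes. The 5 members left out were Mrps31, Mrps27 (5.93), Mrpl47 (7.38), Mrps35 (7.44) and Mrpl21 (8.71). The members with the lowest means that passed were Mrpl1 (7.93), Mrpl16 (8.02) and Mrps34 (8.16). These 3 reached 10 in PIR+ libraries only (in 3, 4 and 3 of them), with PIR- values of at most 8.1, 7.3 and 9.6, and Mrps25 reached it in 4 PIR- libraries only. A difference in that direction was therefore built into their passing the filter, as it was for 10.7% of all tested genes on the PIR+ side. Exons of 32 members overlap those of another gene in GENCODE M21. Reads of Mrpl43 cannot be told from those of Twnk on the other strand, those of Mrps30 from B430218F22Rik or those of Mrps25 from Nr2c2, unless strand was used in counting, which is not given in the sources used here. Mrpl33 shares exon sequence with Gm43809 on the same strand. Processed pseudogenes are annotated for Mrpl23, Mrpl48 and Mrps36, so the assignment of their reads is uncertain.

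Added up over the 76 members, the messages were higher in PIR+ than in PIR- cells, and so was the whole library. In PIR+ wt libraries the members summed to 1434, 1640 and 1868, and in PIR- wt libraries to 1109, 1088 and 1351. In PIR+ KO libraries they summed to 1808, 1638 and 2090, and in PIR- KO libraries to 1200, 1367 and 1643. The PIR+ and PIR- sums did not overlap in wt and overlapped by a narrow margin in KO, where the highest PIR- library passed the lowest PIR+ one. Group means were 1647 ± 217 (SD, n = 3 here and below), 1182 ± 146, 1845 ± 229 and 1403 ± 224 in the same order. The member sum of PIR+ libraries was 1.39 times that of PIR- libraries in wt and 1.31 times in KO, beside 1.36 and 1.27 times for the sum over all genes. As a share of the library the members took 0.722%, 0.703%, 0.750% and 0.724% on average, and 0.674% to 0.761% over all 12 libraries. In bulk samples fewer cells of a type and less RNA per cell cannot be told apart. The large subunit genes summed to 1.93 to 2.18 times the small subunit genes in every library, and the ranges of the 4 groups overlapped.

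**Figure D1:**
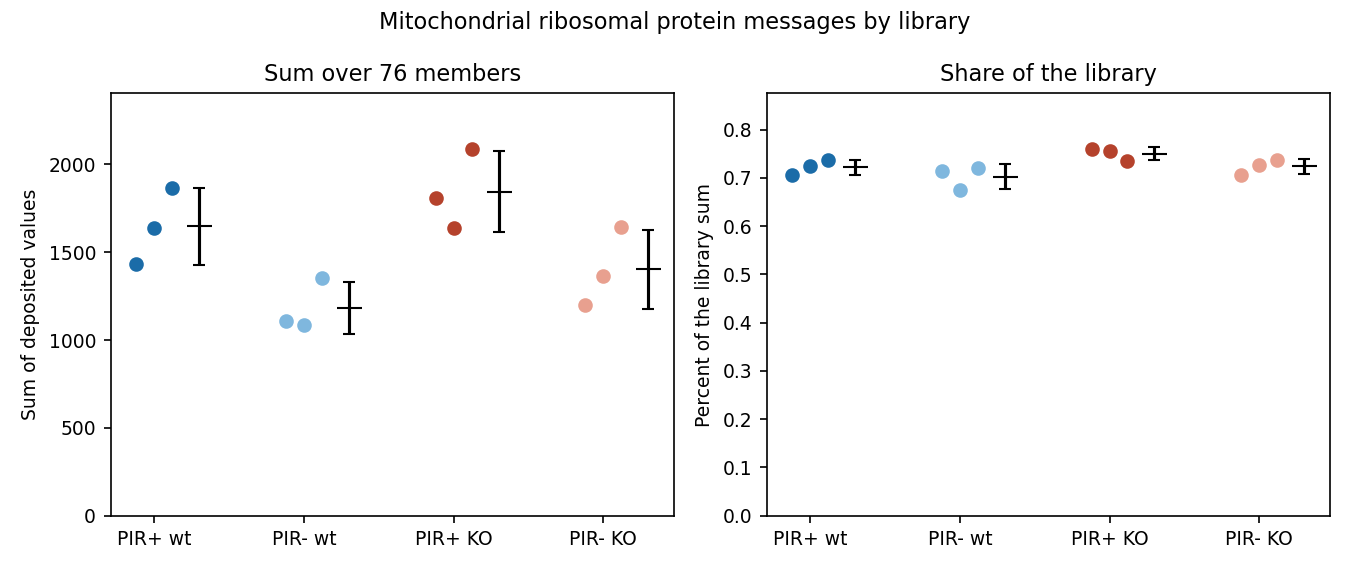
Sum of the deposited values over the 76 members (left) and that sum as a percent of the library sum (right), 1 point per library in each of the 4 groups, with the mean and SD of 3 libraries beside the points. The sums of PIR+ libraries lie above those of PIR- libraries in wt, while the shares lie between 0.674% and 0.761% in all 12.

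Library sums ran from 155374 to 284648. Estimated molecules ran from 208195 to 442533, and the ends of these ranges belong to different libraries. The receptor genes followed the titles: Pira1, Pira2 and Lilrb3 were at 0 in all 6 PIR- libraries and between 4.7 and 35.7 in the 6 PIR+ libraries, while Kit and Il7r were present in all 12. Of the genes of the sorted cells, Kit was 34.2 to 56.3 in PIR+ and 18.6 to 34.5 in PIR- libraries, Il7r 9.7 to 20.3 and 16.1 to 24.4, and Ptprc, the pan-leukocyte CD45 antigen, 38.1 to 57.6 and 6.4 to 18. Ptprc and Kit thus moved with the subset difference described below, and Ptprc did not overlap. Globin messages were high in 5 libraries (Hba-a1 above 300), and all 5 are among those whose markers field goes against the title. The 14 erythroid markers in the table summed to 33.1 to 897.6 in PIR+ wt, 172.4 to 1614.5 in PIR- wt, 34.1 to 1831.9 in PIR+ KO and 41.4 to 1384.0 in PIR- KO libraries. Among them Hbb-y, Hba-x and Hbb-bh1 reached 773.1, 98.8 and 44.8 in a single library, PIR+ KO replicate 1, and at most 2.7 in the other groups. All globin genes together summed to 28.6 and 39.4 in PIR+ KO replicates 2 and 3. Granulocyte and mast cell markers, with Mcpt8 and S100a9 at 0, summed to 53.4 to 92.2 in PIR+ and 4.6 to 46.1 in PIR- libraries. Most of that was Mpo (41.1 to 66.4 and 3.1 to 29.4) and Prtn3 (11.8 to 25.6 and 0.8 to 10.4). Elane and S100a8 were at 0 in all PIR+ libraries and at most 1.7 and 0.5 in PIR- libraries. Megakaryocyte markers summed to 6.1 to 19.8 and 1.1 to 4.8, all 8 hepatocyte markers to 7.0 to 26 and 13.8 to 64.1, and macrophage markers to at most 9.3 in any library. The part of these genes and cells in the results below was not tested, and counts are given with and without the globin-rich libraries.

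In wild type, 24 of the 71 tested members (33.8%) were higher in PIR+ cells and none was lower (limma, Benjamini-Hochberg adjusted p under 0.05), against 40.6% and 3.72% of all tested genes. The share of members was thus no higher than the share of genes. The median log2 fold change of the members was 0.45, beside 0.51 for all tested genes. By symbol, 14 of 45 large subunit genes (31.1%) and 10 of 26 small subunit genes (38.5%) rose. Folds of the 24 ran from 0.58 on the log2 scale for Mrpl4 to 1.21 for Mrps30, with Mrps10 (1.18), Mrps34 (1.07), Mrpl50 (1.06), Mrps18b (1.05), Mrpl27 (1.0) and Mrpl33 (1.0) next. Mrps34 and Mrpl16, both among the 24, passed the filter through PIR+ libraries alone. No member had an unadjusted p under 0.05 in the other direction. The 3 PIR+ and 3 PIR- values did not overlap in 24 members, higher in PIR+ in each, against 47.6% higher and 4.36% lower of all tested genes. When the 5 globin-rich libraries were left out, 2 PIR+ and 1 PIR- wt libraries were left, and 4 members were called higher. The lone library is then assumed to vary like the other groups. The count was 10 without PIR+ wt replicate 3, 12 without PIR- wt replicate 1 and 15 without PIR+ wt replicate 2.

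In KO cells, 11 of 71 members (15.5%) were higher in PIR+ cells and none was lower, against 22.5% and 2.97% of all tested genes, with medians of 0.34 and 0.39. They were Mrpl33, Mrpl1, Mrps30, Mrpl16, Mrpl17, Mrpl52, Mrpl53, Mrps7, Mrpl51, Mrps15 and Mrpl43, in falling order of fold from 1.24 to 0.62. Mrpl1 and Mrpl16 passed the filter through PIR+ libraries alone. Of these, 8 were also called in wt, and Mrpl1, Mrpl43 and Mrpl51 were not. The values of the subsets did not overlap in 18 members that were higher and in 1, Mrps25, that was lower, against 35.7% and 3.43% of all tested genes. Mrps25 passed the filter through PIR- libraries alone. Without the globin-rich libraries 1 member was called, and single libraries left out moved the count from 4 (without PIR- KO replicate 1) to 18 (without PIR- KO replicate 3). Of the 16 members called in wt only, none differed between the genotypes by the test of the difference itself, which called 0 of 71 members. The log2 fold change was above 0 in both genotypes in 61 of 71 members (85.9%), against 80.4% of all tested genes. Across these 71 genes the fold changes in the 2 genotypes correlated at Pearson r = 0.524 and Spearman rho = 0.496, beside Pearson r = 0.837 across all 4542 tested genes, given as a description, since all genes come from the same 12 libraries.

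Averaged over genotype, with 6 libraries a side, 40 of 71 members (23 large, 17 small) were higher in PIR+ cells and none was lower, against 55.0% and 4.58% of all tested genes. The share of members called higher was thus near that of all genes. Mrpl1, Mrpl16 and Mrps34, all among the 40, passed the filter through PIR+ libraries alone. Here too the median of the members (0.43) lay beside that of all genes (0.45). Leaving out the globin-rich libraries gave 10 such members, and the count was 25 without PIR+ wt replicate 3 and 26 without PIR+ KO replicate 3. Because the library sums differed, all fits were repeated after median-of-ratios scaling, which divides each library by the median ratio of its genes to their geometric mean over libraries. The median of all tested genes was then 0.01 in place of 0.45, and that of the members -0.01. On this scale 2 members were higher, Mrpl33 and Mrps30, and 5 were lower, Mrps25, Mrpl37, Mrpl23, Mrps17 and Mrpl11, against 15.4% and 14.2% of all tested genes. Of the 5, Mrps25 passed the filter through PIR- libraries alone. Within wt, 3 members were higher (Mrpl33, Mrps10 and Mrps30) and 3 lower (Mrpl37, Mrps17 and Mrpl23), against 11.5% and 11.0%, and within KO Mrpl33 was higher and Mrps25 lower, against 8.12% and 7.51%. Of the 40 members called higher on the deposited scale, 7 had a fold below 0 after scaling. The remaining tested members were not called on that scale.

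**Figure D2:**
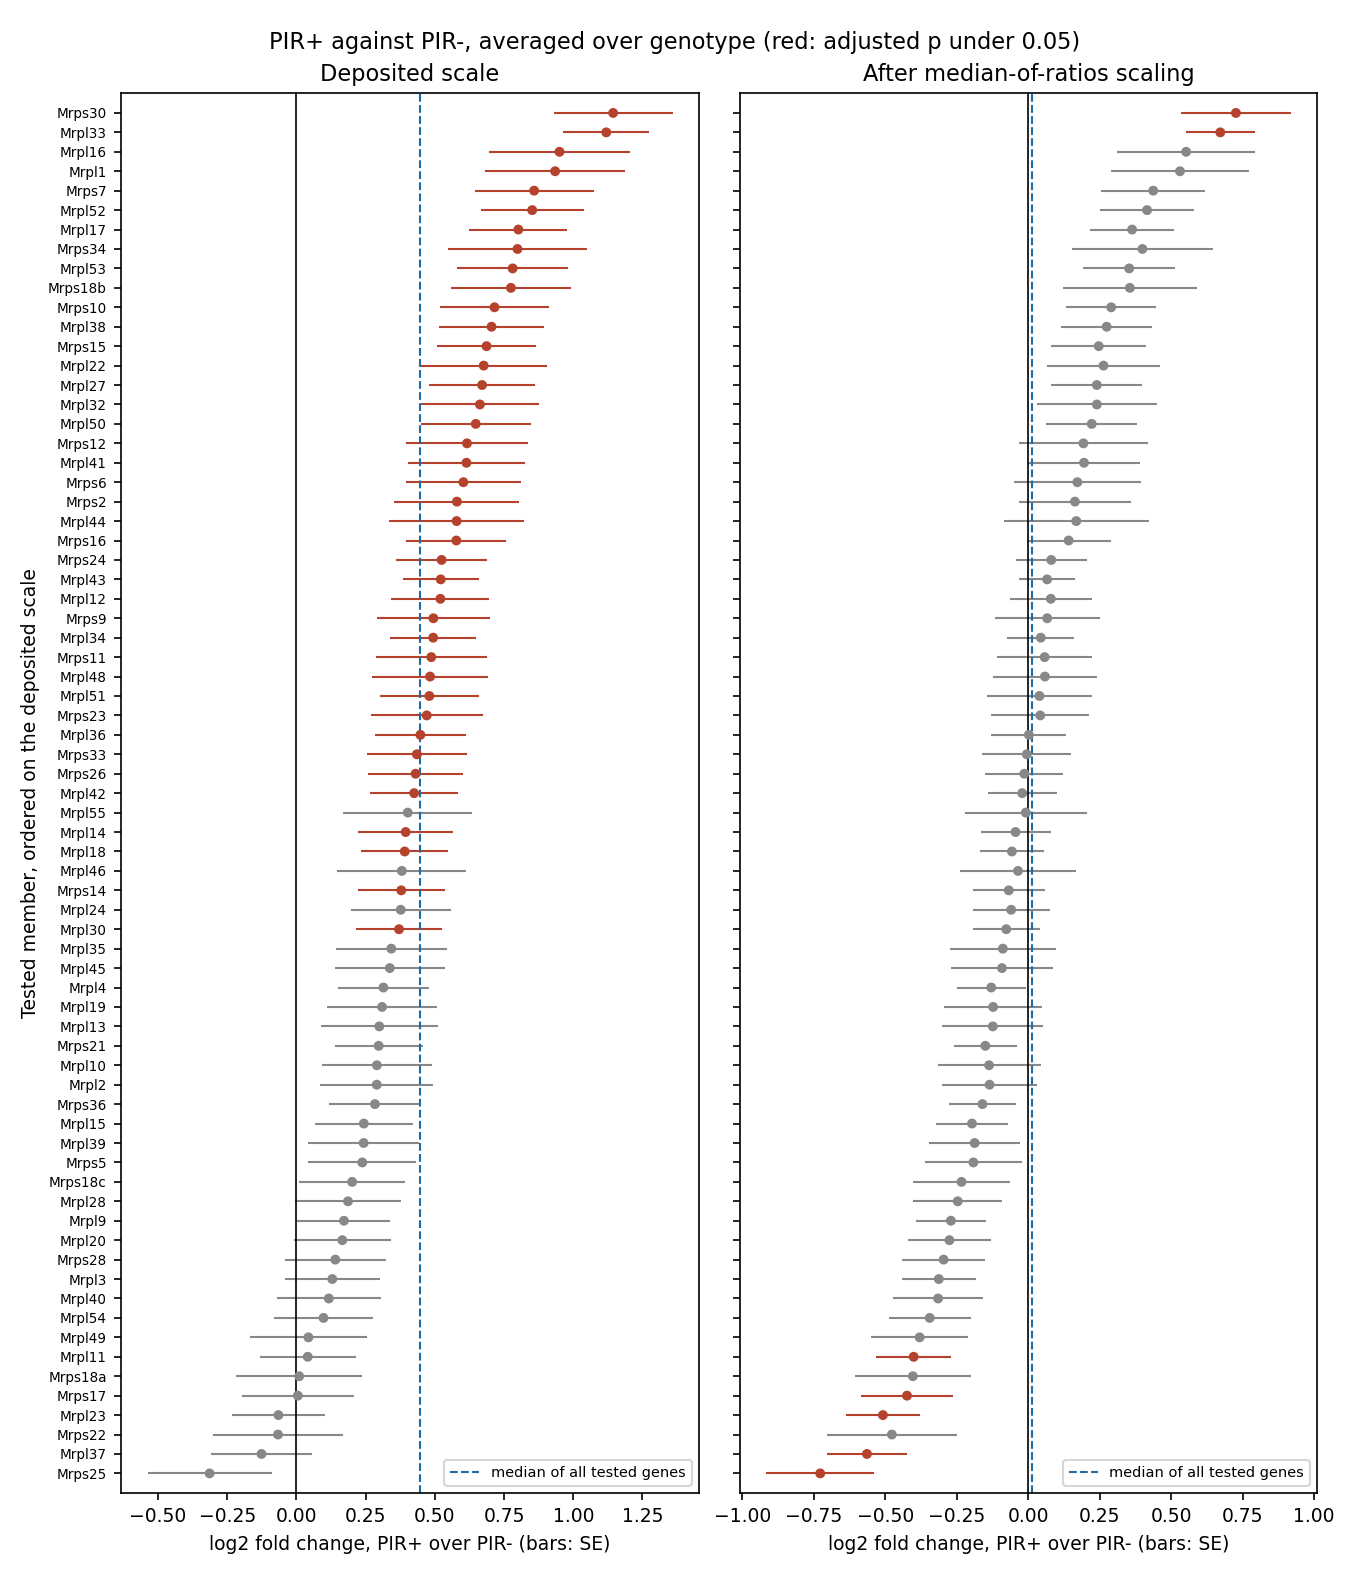
Log2 fold change of PIR+ over PIR- libraries, averaged over genotype, for each of the 71 tested members on the deposited scale (left) and after median-of-ratios scaling (right), with bars of 1 SE, in the same order of genes in both. Red marks an adjusted p under 0.05, the dashed line is the median of all 4542 tested genes, and 40 members are red on the left against 7 on the right.

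Mrpl33, a small protein of the large subunit (chromosome 5, 31596935 to 31664384, GRCm38, plus strand), was 47.0, 53.3 and 49.5 in PIR+ wt and 26.5, 21.7 and 25.6 in PIR- wt libraries. KO values were 77.5, 57.3 and 63.9 in PIR+ and 19.6, 34.0 and 30.1 in PIR- libraries. Every PIR+ library was above every PIR- library, which held for Mrpl33 and Mrps30 among the 71 members (17.7% of all tested genes, and 2.4% in the other direction, where no member was found). The means were 49.9 ± 3.17, 24.6 ± 2.55, 66.2 ± 10.3 and 27.9 ± 7.45. Its log2 fold change was 1.0 ± 0.22 (SE) in wt (limma adjusted p = 1.51e-04, range over alternatives 4.64e-05 to 0.0626) and 1.24 ± 0.22 in KO (3.30e-06, range 5.93e-07 to 0.0182). Averaged, it was 1.12 ± 0.15 (limma adjusted p = 1.56e-09) as deposited and 0.67 ± 0.12 (6.88e-05) after scaling. The wt call was lost without the globin-rich libraries, where the fold was 0.89 and the adjusted p 0.0626. Mrpl33 made up 2.65% to 4.29% of the member sum in PIR+ libraries and 1.63% to 2.49% in PIR- libraries. The RefSeq start of Mrpl33 used for the promoter above lies inside the GENCODE span given here, not at its first base.

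Mrps30 (chromosome 13, 118378381 to 118387252, minus strand), the large subunit protein with a small subunit symbol, had values of 18.4, 13.8 and 19.0 in PIR+ wt and 9.0, 5.4 and 6.2 in PIR- wt libraries. In KO it had 17.6, 18.1 and 19.8 in PIR+ and 4.8, 8.6 and 13.2 in PIR- libraries. The 6 PIR+ values lay above the 6 PIR- values, with the closest pair at 13.8 and 13.2. Its log2 fold change was 1.21 ± 0.30 in wt (limma adjusted p = 8.65e-04) and 1.07 ± 0.30 in KO (0.00493), and 1.14 ± 0.21 averaged (5.36e-06). After scaling the average was 0.73 ± 0.19 (limma adjusted p = 0.00459), and over all alternatives the adjusted p of the average ran from 9.96e-07 to 0.0287. The KO call was lost after scaling (fold 0.71, limma adjusted p 0.0807) and without PIR- KO replicate 1 (0.74, 0.113). The call in each genotype was lost without the globin-rich libraries, which left 1 PIR- wt library. Both calls were lost too with the 6 libraries whose label fields give the same PIR sign, which left 1 PIR- wt and 1 PIR+ KO library.

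Mrps10, a small subunit protein with a bacterial counterpart (chromosome 17, 47368887 to 47381417, plus strand), was low in 1 group. It was 17.8, 19.1 and 19.7 in PIR+ wt, 7.4, 6.2 and 10.1 in PIR- wt, 18.2, 19.1 and 22.1 in PIR+ KO and 11.1, 20.8 and 19.1 in PIR- KO libraries. The PIR- wt values lay below all others, and the KO libraries of the 2 subsets overlapped. PIR+ exceeded PIR- wt by 1.18 ± 0.28 on the log2 scale (limma adjusted p = 3.81e-04), and by 0.71 ± 0.22 after scaling (0.0207). In KO the fold was 0.25 ± 0.28 (adjusted p = 0.503). The difference between the genotypes in this effect was -0.93 ± 0.39 (interaction, adjusted p = 0.640) and did not pass the test.

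**Figure D3:**
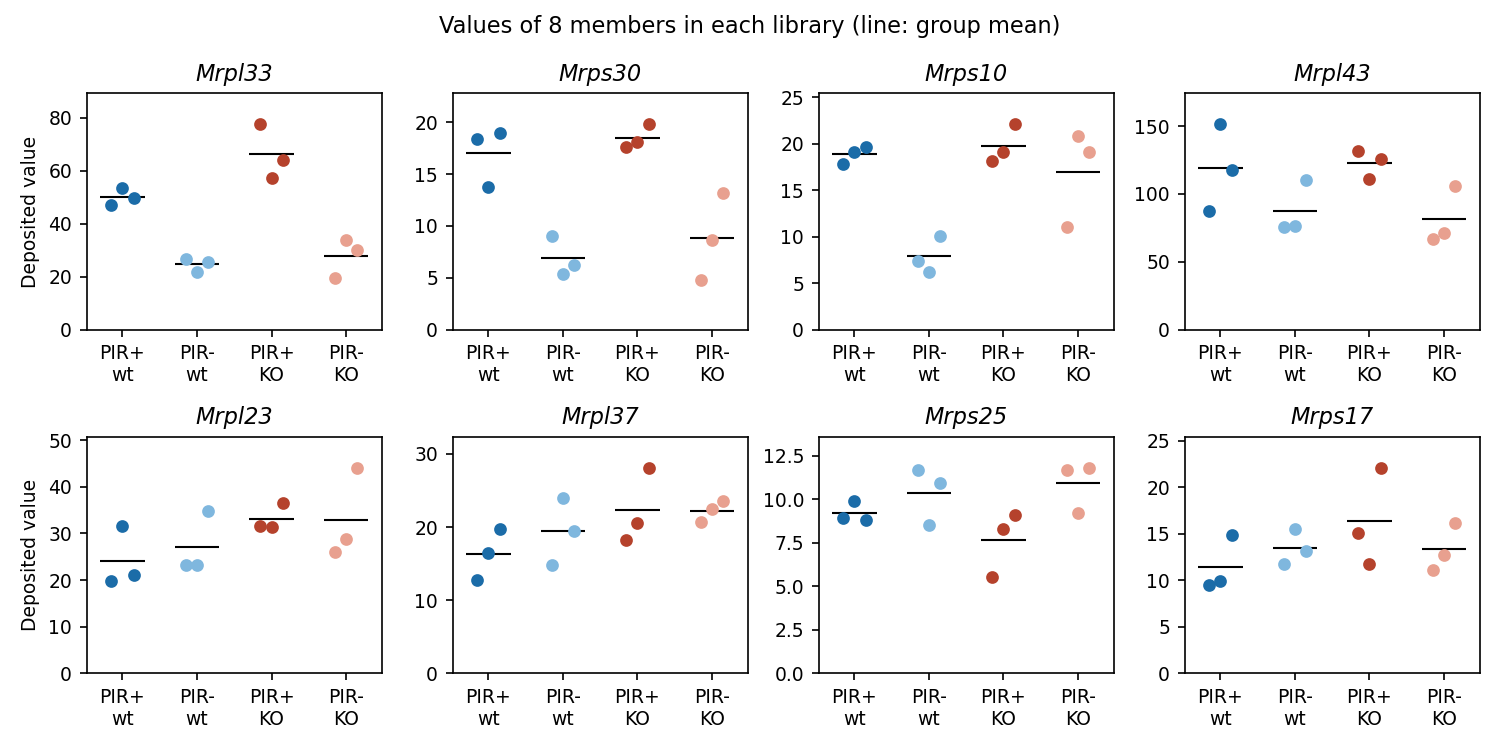
Deposited values of 8 members in each of the 12 libraries, with a line at the mean of each group of 3. Mrpl33 and Mrps30 are higher in all 6 PIR+ than in all 6 PIR- libraries, while the PIR+ and PIR- values of Mrpl23, Mrpl37, Mrps25 and Mrps17 overlap.

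At the other end of the range were 5 members that were not called on the deposited scale, with averaged folds from -0.31 to 0.04, and were called lower in PIR+ cells, averaged over genotype, once libraries were scaled. Mrpl23, a large subunit protein with a bacterial counterpart at the peptide exit (chromosome 7, 142532686 to 142540747, plus strand), was 19.7, 31.6 and 21 in PIR+ wt and 23.3, 23.2 and 34.9 in PIR- wt libraries. In KO it was 31.5, 31.3 and 36.5 in PIR+ and 26, 28.8 and 44.1 in PIR- libraries. The groups overlapped, and its averaged log2 fold change was -0.07 ± 0.17 (limma adjusted p = 0.744) as deposited and -0.51 ± 0.13 (0.00339) after scaling. The deposited direction did not hold in all fits, as it was 0.01 without the globin-rich libraries. After scaling its 6 PIR+ values were 16.7 to 29.1 and its 6 PIR- values 30.5 to 41.5, which do not overlap. The same separation after scaling was seen for Mrpl37 and Mrps25, so 3 members were apart in the direction of lower in PIR+, and Mrpl33 alone in the other, against 7.18% and 7.31% of all tested genes. Of the 3, Mrps25 passed the filter through PIR- libraries alone.

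Mrpl37, a large subunit protein found in mitochondria but not in bacterial ribosomes (chromosome 4, 107055874 to 107066868, minus strand), was 12.7, 16.4 and 19.7 in PIR+ wt and 14.8, 24.0 and 19.4 in PIR- wt libraries. KO values were 18.2, 20.6 and 28.1 in PIR+ and 20.7, 22.5 and 23.5 in PIR- libraries. Its averaged fold was -0.13 ± 0.18 (limma adjusted p = 0.544) as deposited and -0.56 ± 0.14 (0.00276) after scaling. Mrps25, of the small subunit (chromosome 6, 92169525 to 92184033, minus strand), was 8.9, 9.9 and 8.8 in PIR+ wt and 11.7, 8.5 and 10.9 in PIR- wt libraries. In KO it was 5.5, 8.3 and 9.1 in PIR+ and 11.7, 9.2 and 11.8 in PIR- libraries, where the groups did not overlap by a margin of 9.1 to 9.2. It had the lowest averaged fold of all 71 members, -0.31 ± 0.22 (limma adjusted p = 0.213) as deposited and -0.73 ± 0.19 (0.00397) after scaling. Mrps25 reached 10 in PIR- libraries only, so a difference in that direction was built into its passing the filter. Mrps17, of the small subunit, was 11.4 ± 3.01 and 13.5 ± 1.91 in PIR+ and PIR- wt and 16.3 ± 5.26 and 13.3 ± 2.61 in KO. Its averaged fold was 0.01 ± 0.20 as deposited (limma adjusted p = 0.984) and -0.42 ± 0.16 (0.0467) after scaling. Mrpl11, of the stalk base of the large subunit, had group means of 25.6 ± 7.73, 24.0 ± 2.84, 23.5 ± 4.99 and 22.8 ± 3.20 and a fold of 0.04 ± 0.17 as deposited (limma adjusted p = 0.849) and -0.40 ± 0.13 (0.0210) after scaling.

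The balance between members can be read within a library, where scaling cancels. Mrpl33 was 1.69 to 2.46 times Mrpl23 in the PIR+ libraries and 0.683 to 1.18 times in the PIR- libraries. Mrpl23 made up 1.12% to 1.93% of the member sum in PIR+ and 2.10% to 2.68% in PIR- libraries, and Mrps25 0.304% to 0.621% and 0.673% to 1.06%. These ratios were chosen after the values were seen and are given as a description. In the authors' deposited table of DESeq2 p-values for PIR+ against PIR- wt, 2 of 76 members had a p under 0.05, Mrpl23 (0.0300) and Mrpl37 (0.0309), against 12.6% of the genes with a p. Mrpl33 (0.0603), Mrps10 (0.0608) and Mrps30 (0.0687) were just above it in the authors' deposited table, whose header does not say whether the p-values were adjusted.

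Mrpl43, the member with the highest values (chromosome 19, 45004829 to 45006442, minus strand), was 87.4, 151.3 and 118.0 in PIR+ wt and 76, 76.4 and 110.2 in PIR- wt libraries. KO values were 131.8, 111.0 and 125.7 in PIR+ and 66.7, 71.1 and 105.8 in PIR- libraries. The subsets overlapped in wt and not in KO. Its fold was 0.42 ± 0.19 in wt (limma adjusted p = 0.0654) and 0.62 ± 0.19 in KO (0.0123), and 0.07 ± 0.10 averaged after scaling (0.665). Over the alternatives the adjusted p in KO ran from 0.00149 to 0.338, and the fold stayed between 0.49 and 0.82 with any 1 library left out. Single libraries whose removal ended that call were PIR+ KO replicate 1 and PIR- KO replicates 1 and 2. The call was also lost after removal of the globin-rich libraries, after scaling (fold 0.22) and with no filter on low values (the same fold, with more genes to adjust for). With only the libraries whose marker label matches the title, which left 1 PIR+ KO library, it was lost too.

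The 3 Mrps18 genes are homologs of 1 bacterial gene, and of the proteins Mrps18c takes the place of the bacterial one while Mrps18a sits in the large subunit. Mrps18b was 19.0, 19.7 and 19.0 in PIR+ wt and 12.2, 3.1 and 16.3 in PIR- wt libraries, a fold of 1.05 ± 0.31 (limma adjusted p = 0.00440, range over alternatives 9.05e-05 to 0.304). Without the lowest library, PIR- wt replicate 2, it was 0.42 (adjusted p 0.280). In KO its means were 17.1 ± 2.53 and 12.1 ± 3.72, with a fold of 0.50 ± 0.31 (limma adjusted p = 0.212). Mrps18a had group means of 8.80 to 9.83 and an averaged fold of 0.01 ± 0.23 (limma adjusted p = 0.971). Mrps18c was 15.9 ± 5.75 and 17.1 ± 1.55 in PIR+ and PIR- wt and 21.5 ± 4.43 and 14.2 ± 1.1 in KO, with an averaged fold of 0.20 ± 0.19 (limma adjusted p = 0.351). Of the 3, Mrps18b was the one called, in wt and in the average (0.77), and no call remained after scaling (adjusted p 0.231 and 0.280). Whether the 3 differ from each other was not tested.

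Among KO and wt libraries of the PIR+ subset, no member was called in either direction by limma, against 0.44% higher and 0.462% lower of all tested genes. The median log2 fold change of the members was 0.16, beside 0.09 for all genes, with a median SE of 0.27. Changes of a size near that SE could not be detected, and some well above it were not called either, such as 0.76 for Mrpl13. At an unadjusted p under 0.05 there were 4 members (5.63%, against 6.89% of all tested genes), all higher in KO: Mrpl13 (0.76 ± 0.30), Mrpl16 (0.82 ± 0.36), Mrpl15 (0.51 ± 0.25) and Mrpl42 (0.47 ± 0.22), and the lowest limma adjusted p was 0.450, for Mrpl13. Mrpl16 would not have passed the filter without its PIR+ KO libraries, so a difference in that direction was in part built into its being tested. Mrpl13 was 7.6, 9.9 and 14.2 in PIR+ wt and 18.2, 16.2 and 19.8 in PIR+ KO libraries, which do not overlap. That held for 4 members higher in KO and 2 lower, against 8.04% and 3.04% of all tested genes. Mrpl13 also had the lowest p of the members in the authors' deposited table for this comparison (0.0709), where 0 of 76 were under 0.05.

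In PIR- cells 1 member was called higher in KO and none lower, against 1.08% and 0.22% of all tested genes, with medians of 0.25 and 0.20. It was Mrps10, whose PIR- values are given above and did not overlap between KO and wt, as was so for 6 members higher in KO and 1 lower (14.4% and 1.01% of all tested genes). Its fold was 0.99 ± 0.28 (limma adjusted p = 0.0424, range over alternatives 0.00918 to 0.339). The adjusted p was above 0.05 after scaling (fold 0.81, adjusted p 0.0588), with an added constant of 5, with no filter and without the globin-rich libraries. It was so, too, without any 1 of 6 libraries, PIR- wt replicate 1 or 2, PIR- KO replicate 2 or 3, PIR+ wt replicate 2 or PIR+ KO replicate 1, while the fold stayed between 0.83 and 1.26 with any 1 library left out. PIR+ libraries and the filter do not enter this fold, and act only on its SE and adjusted p. Both this comparison and that of the subsets in wt rest on the same 3 PIR- wt libraries. Mrpl50, of the large subunit, was 7.4, 9.3 and 7.0 in PIR- wt and 13.8, 13.3 and 15.4 in PIR- KO libraries, with a fold of 0.78 ± 0.28 (limma adjusted p = 0.187). The KO effect in PIR+ minus that in PIR- was called for no member (background 0.11% higher and 0.462% lower). At an unadjusted p under 0.05 were 3 members (4.23%, against 5.5% of all tested genes), all with values below 0, namely Mrps10, Mrpl50 (-0.83 ± 0.40) and Mrpl30 (-0.67 ± 0.31), and the lowest limma adjusted p was 0.640, for Mrps10.

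**Figure D4:**
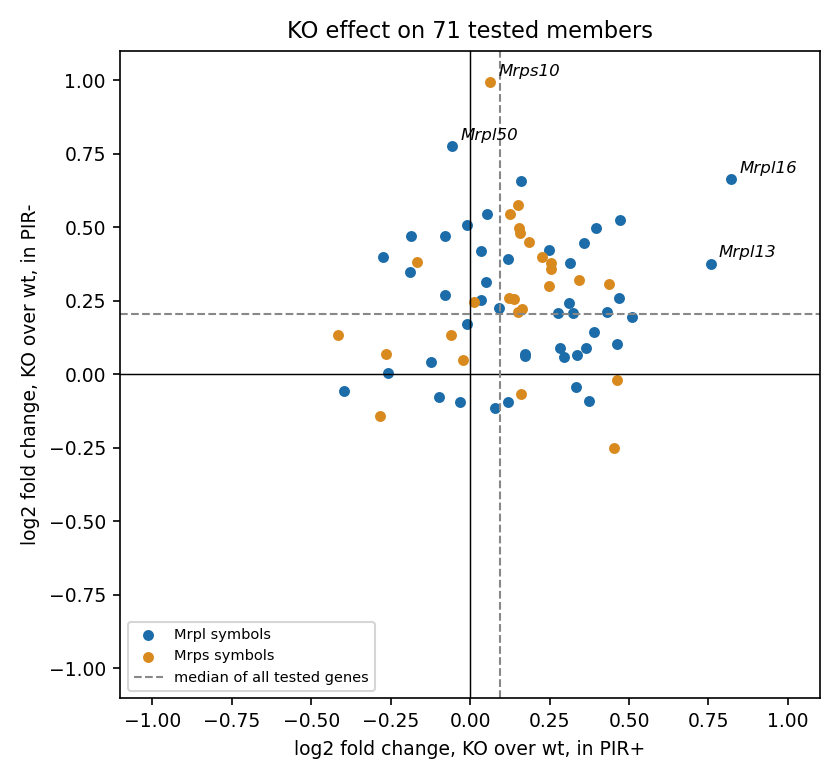
Log2 fold change of KO over wt in PIR+ libraries (horizontal) and in PIR- libraries (vertical), on the deposited scale, 1 point per tested member, coloured by symbol, with dashed lines at the medians of all tested genes. Mrps10 lies highest at 0.99 on the vertical axis and 0.06 on the horizontal axis, and Mrpl16 and Mrpl13 lie farthest to the right. Mrpl16 would not have passed the filter without its PIR+ KO libraries.

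Other genes of mitochondrial translation, from lists chosen by function, had no member called lower in PIR+ cells in wt, in KO or in the average as deposited. Their counts stand beside 40.6% of all tested genes higher in wt, 22.5% in KO and 55.0% in the average, and with so few genes a list none is read as apart from it. Of 7 subunits of the mitochondrial ribosome with other symbols, 5 were higher in wt, 0 in KO and 6 in the average. Ptcd3, a small subunit protein with RNA-binding repeats, was 22.7 ± 1.87 and 13.1 ± 6.84 in PIR+ and PIR- wt, with an averaged fold of 0.67 ± 0.19 (limma adjusted p = 0.00191). Of 9 tested assembly and rRNA modification genes, 3 were higher in wt, 3 in KO and 4 in the average. Rbfa, a small subunit assembly factor, was 16.5 ± 4.66 and 7.67 ± 2.54 in wt and 23.0 ± 3.93 and 10.7 ± 1.88 in KO, and its averaged fold was 1.03 ± 0.20 (limma adjusted p = 1.49e-05) as deposited and 0.60 (0.0126) after scaling. Mpv17l2, a large subunit assembly protein, had an averaged fold of 0.95 ± 0.24 (limma adjusted p = 4.93e-04) and 0.54 (0.0411) after scaling. It was at most 7.5 in PIR- libraries and passed the filter through 4 PIR+ libraries alone, so its difference was built into the selection. Rbfa and Mpv17l2 were the only genes on these lists called in the average after scaling.

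Of 9 tested translation factors, 3 were higher in wt, 1 in KO and 4 in the average. Mrrf, which recycles ribosomes after termination, was 13.1 ± 3.03 in PIR+ wt and 3.63 ± 0.84 in PIR- wt libraries, a fold of 1.60 ± 0.34 (limma adjusted p = 1.02e-04) that also passed after scaling (1.16, 0.00719). In KO it was 10.7 ± 3.62 and 9.10 ± 4.25 and was not called. The difference between its folds in the 2 genotypes is not given here, so no genotype effect is read from these calls. Oxa1l, which inserts new proteins into the inner membrane, was the 1 called in KO (0.85 ± 0.31, limma adjusted p = 0.0362). Of 4 tested mitochondrial tRNA synthetases, 1 was higher in wt, 0 in KO and 2 in the average, with Rars2 in both. Of 6 tested genes of mitochondrial transcription and RNA processing, 2 were higher in wt (Pnpt1, which reached 10 in PIR+ libraries only, and Hsd17b10), 0 in KO and 4 in the average. None of these lists had a gene called between KO and wt in either subset. Among 81 tested cytosolic ribosomal proteins, 72 were higher in wt and 20 in KO, and among 80 respiratory chain genes 40 and 22, against 40.6% and 22.5% of all tested genes. After scaling, 3 cytosolic ribosomal proteins were higher and 6 lower in wt, and 5 respiratory chain genes were higher and 5 lower, against 11.5% and 11.0%. The deposited wt medians were 0.53 and 0.50, beside 0.45 for the mitochondrial ribosomal proteins. Their median values over the 12 libraries were 499.8 and 47.8, against 15.8, and their median SE 0.16 and 0.20, against 0.27.

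Set against the promoter letters, the median averaged log2 fold change was 0.49 in 21 tested members with CCGGAAG and 0.39 in 42 without, 0.45 in 11 with AAGATGGC and 0.43 in 52 without, and 0.66 in 7 with CGCATGCG and 0.43 in 56 without. With the longer NRF1 letters the order turned, to 0.24 in 3 members and 0.44 in 60. These medians are a description, the shorter NRF1 letters were chosen after the longer ones had been searched, and the differences were not tested.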

How the data were processed

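The authors deposited 1 table of normalized molecule values (unit signal) for the 12 libraries, rounded to 1 decimal, and 2 columns of DESeq2 p-values. Per the labels' protocols, molecules were barcoded at reverse transcription from an oligo-dT primer, and spike-in RNA was added for normalization. Per the submitters' processing notes, TopHat2, DESeq2 and mm10 were used, while their versions, the counting tool and its strand setting are not stated there. The values keep differences between library sums. Between 93.0% and 94.2% of values under 15 lay within 0.055 of a multiple of 1 step per library, so whole counts are not claimed.

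Log2(value + 1) was fitted with limma 3.58.1 in R 4.3.3 (trended prior, 1 mean per group), for genes that reached 10 in 3 or more libraries, and Benjamini-Hochberg adjustment over all 4542. The added 1 understates folds of low genes. Members and lists were chosen with earlier results of these data known. Named members are those called on either scale (up to 12 per direction and scale by fold), the 8 with the highest means, those nearest the filter and the Mrps18 genes, and up to 4 called genes per list. Others, such as Mrpl13, were chosen after their values were seen. Locations are from GENCODE M21 and promoters from RefSeq. Mitochondrially encoded messages were not analysed here.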

Additional observations from a re-analysis of the deposited data

How the results depend on the processing

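After median-of-ratios scaling the count higher in PIR+ fell from 24 to 3 in wt, from 11 to 1 in KO and from 40 to 2 in the average, and the count lower went from 0 to 3, 1 and 5. With a filter at 20 in place of 10, which tests fewer genes, 15 were called in wt and 23 in the average, and with no filter 4 in KO. With the 6 libraries whose 2 label fields give the same PIR sign the counts were 9 in wt, 5 in KO and 21 in the average, and without the globin-rich libraries 4, 1 and 10, in both cases from fewer samples. The single call for KO against wt in PIR- became 0 after scaling, with an added constant of 5, with no filter and with the filter at 20. Added constants of 0.5 and 5 moved no other count by over 1.5 times. Where no fewer genes or samples were used, the cause was not tested.

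Leaving out 1 library in turn gave 10 to 26 members higher in wt, 4 to 18 in KO, 25 to 41 in the average and 0 to 1 for KO against wt in PIR-, and 0 lower in each. In wt the count was 10 without PIR+ wt replicate 3, 12 without PIR- wt replicate 1 and 15 without PIR+ wt replicate 2. In KO, leaving out PIR- KO replicate 1 gave 4, PIR+ KO replicate 1 gave 6, PIR- KO replicate 2 gave 6, PIR+ KO replicate 3 gave 7 and PIR- KO replicate 3 gave 18. In the average it was 25 without PIR+ wt replicate 3 and 26 without PIR+ KO replicate 3.

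Scaling turned the sign of the averaged fold in 34 of 71 members, of the wt fold in 32 and of the KO fold in 33. Of the named members, the averages that turned were -0.40 for Mrpl11, -0.045 for Mrpl14, -0.058 for Mrpl18, -0.077 for Mrpl30, -0.021 for Mrpl42, -0.069 for Mrps14, -0.42 for Mrps17, -0.014 for Mrps26 and -0.0056 for Mrps33. With the matching libraries and without the globin-rich ones, the wt values were 0.10 for Mrpl23 and -0.48 for Mrpl44. The averages were 0.064 for Mrpl23 and 0.12 for Mrpl37 with the matching libraries, and 0.011 for Mrpl23, 0.015 for Mrpl37, -0.075 for Mrpl44 and -0.042 for Mrps17 without the globin-rich ones. Leaving out 1 library gave averages of -0.058 to 0.16 for Mrpl11, -0.17 to 0.046 for Mrpl23 and -0.11 to 0.10 for Mrps17, and -0.37 to 0.019 for Mrpl23 in wt. The summed level after scaling was 1446 in PIR+ wt, 1487 in PIR- wt, 1512 in PIR+ KO and 1516 in PIR- KO. On that scale the PIR+ sum was 0.973 times the PIR- sum in wt and 0.997 times in KO. The share from tested members alone was 0.706% in PIR+ wt, 0.687% in PIR- wt, 0.732% in PIR+ KO and 0.706% in PIR- KO.

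Replicate numbers are shared between groups, and whether they pair libraries could not be decided, as the pairs are few and most cross genotypes. Same-numbered pairs correlated at r = -0.106 to 0.162 in their deviations from the group means, and differently numbered pairs at -0.125 to 0.180. Among the 12 libraries, 4 correlated best with their own number. Same-numbered PIR+ and PIR- libraries of 1 genotype correlated at 0.046, -0.046 and 0.030 in wt and 0.162, 0.041 and 0.062 in KO. A replicate block gave 33 members higher in wt, 14 in KO, 43 in the average, 1 for KO against wt in PIR-, 0 in PIR+ and 0 for the interaction. Low values limit the precision: the median mean of the members is 15.8 in libraries of 208195 to 442533 estimated molecules.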
